A study of Mus musculus with 4 samples.

Results

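The interleukin-1 family genes described here are 10 of the 32285 gene rows of 2 single-cell matrices, taken by symbol. They are the cytokines Il1a, Il1b and Il18, the brakes Il1rn, Il1r2 and Il18bp, and the receptor chains Il1r1, Il1rap, Il18r1 and Il18rap. All 10 had UMIs (unique molecular identifiers, 1 per captured RNA molecule) in both libraries. The study put lung leukocytes of mice with an allergic airway model through 10x Genomics 3′ sequencing, with 1 library per genotype. The Plaur KO library came from Plaur-/- mice, which lack the gene of the urokinase receptor, and the WT library from C57B6/J mice, the strain the labels also give for the Plaur KO library. Both groups received LPS and OVA (ovalbumin) on days 0 and 7 and aerosolized OVA on day 14, so no untreated lung is part of the comparison. The design has 8 mice of each genotype, and how many gave cells to each library is not stated. The labels describe the cells both as total lung and as circulating leukocytes sorted for CD45.2 from digested lung, and mouse age is not stated.

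Interleukin-1 alpha and interleukin-1 beta are fever-inducing cytokines that bind the same receptor, Il1r1, which signals only after the accessory chain Il1rap joins it. Interleukin-1 beta and interleukin-18 are made as inactive precursors that inflammasome caspases cut, so their RNA level does not say how much active cytokine was released. Il1rn encodes an antagonist that occupies the receptor without signal, Il1r2 a decoy that lacks the signalling part, and Il18bp a soluble protein that holds interleukin-18. In the allergic lung, interleukin-1 and interleukin-18 are known as signals from myeloid cells to lymphocytes. On GRCm38.p6, Il1b (ENSMUSG00000027398, chr2:129364569-129371164), Il1a (ENSMUSG00000027399, chr2:129299609-129310186) and Il1rn (ENSMUSG00000026981, chr2:24336860-24351491) share a chromosome. The receptor genes Il1r2 (ENSMUSG00000026073, chr1:40084692-40125230), Il1r1 (ENSMUSG00000026072, chr1:40222480-40316201), Il18r1 (ENSMUSG00000026070) and Il18rap (ENSMUSG00000026068) lie in 1 stretch of chromosome 1. Il1rap (ENSMUSG00000022514), Il18 (ENSMUSG00000039217) and Il18bp (ENSMUSG00000070427) lie on chromosomes 16, 9 and 7.

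The Plaur KO library held 10102 barcodes and 9584 kept cells with a median of 2777.5 UMIs, and the WT library 9024 barcodes and 8684 kept cells with a median of 3209. Of the kept barcodes, 15 occurred in both libraries. Clustering gave 41 clusters, of which those with at least 3 fixed markers were named, and the names mean that a cluster was like that cell type. The 19 classes with at least 50 cells in each library are described, and classes with at least 150 cells in each library are compared. Plaur itself had 20070 UMIs in the Plaur KO library and 21570 in the WT library. A 3′ tag may lie outside the deleted part, so this does not check the labels, and every direction below rests on them. Levels are given as CPM, the UMIs of a gene per 1000000 UMIs of the class. With 1 library per genotype there was no test and no difference has a replicate check. Intervals are exact, at 95%, and cover counting error only, and they leave out the spread between mice. Classes were built from the same cells, so levels across classes are a description.

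**Figure D1:**
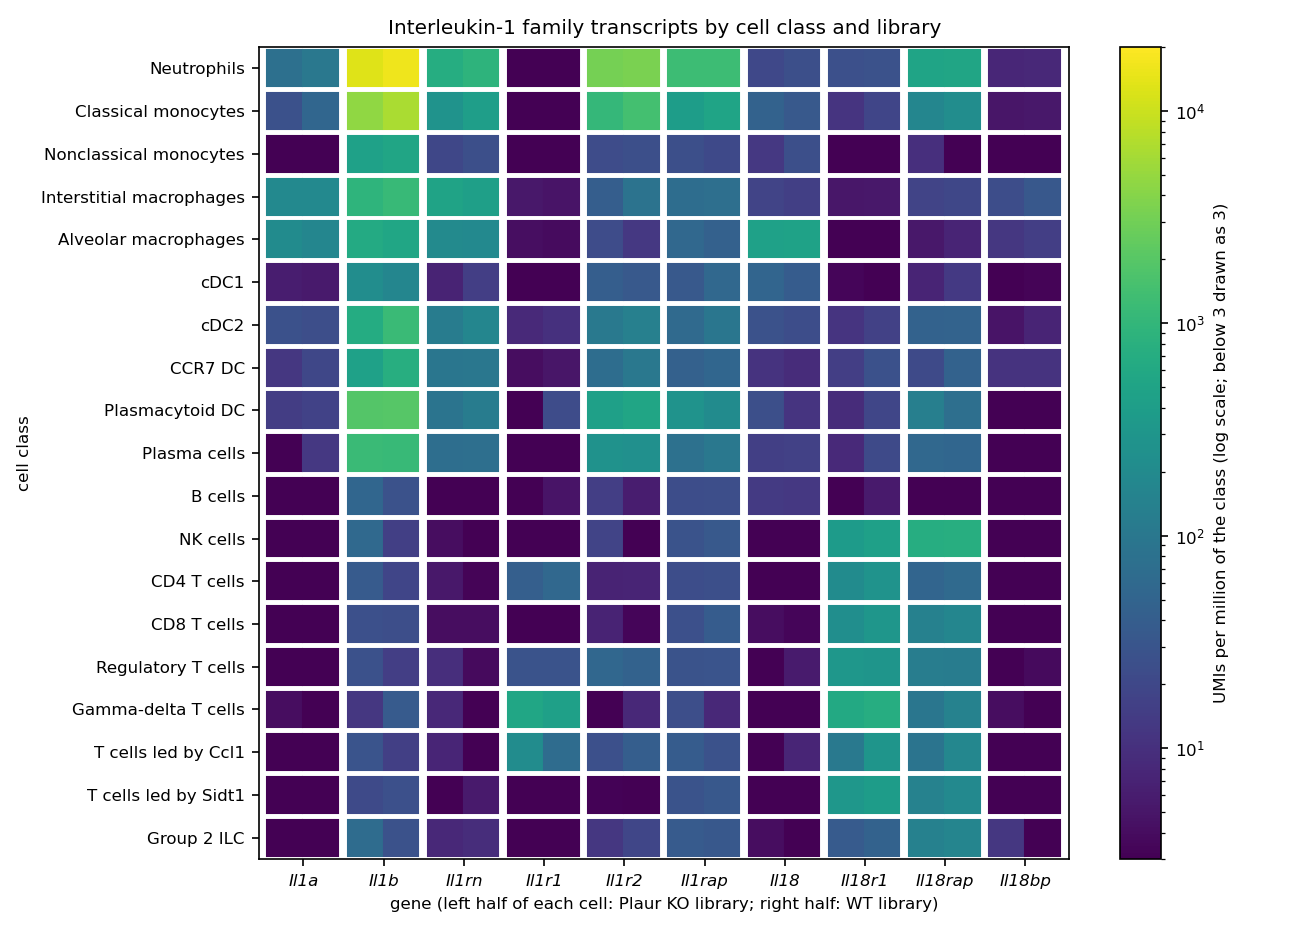
Levels of the 10 genes (columns) in the 19 cell classes (rows) as CPM on a log colour scale. The left part of each cell is the Plaur KO library and the right part the WT library. Il1b, Il1r2 and Il1rap were highest in neutrophils, Il18 in alveolar macrophages, Il1r1 in gamma-delta T cells and Il18rap in NK cells.

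Il1b RNA came mainly from neutrophils. Neutrophils held 96691 of 159687 Il1b UMIs in the Plaur KO library and 85777 of 121369 in the WT library, which is 60.6% (Plaur KO) and 70.7% (WT). They were 34.6% of the kept Plaur KO cells and 26.2% of the kept WT cells. At least 1 Il1b UMI was found in 99.7% of Plaur KO neutrophils and 99.8% of WT neutrophils. The level within neutrophils was lower in the Plaur KO library, at 12924 CPM, against 15828 CPM in the WT library (log2 ratio -0.29, interval -0.31 to -0.28). Over all kept cells the direction was the opposite, with 3623 CPM in the Plaur KO library and 2963 CPM in the WT library (log2 ratio 0.29, interval 0.28 to 0.30). The library sum moves with the number of neutrophils and monocytes captured, and whether that number differs between the mice was not tested.

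Classical monocytes, the blood-derived precursors of lung macrophages, followed with 4660 CPM of Il1b in the Plaur KO library and 6595 CPM in the WT library. They formed 2 unlike clusters. Cluster 18 (684 Plaur KO cells and 193 WT cells) had 5125 CPM in the Plaur KO library and 7373 CPM in the WT library. Of 12 listed neutrophil markers, 9 passed the marker rule in cluster 18 next to 9 monocyte markers, and its cells had a median of 9979 UMIs. Cluster 14 (174 Plaur KO cells and 59 WT cells) had 393 CPM in the Plaur KO library and 800 CPM in the WT library. The high class level therefore belongs to the cluster that also carries neutrophil RNA.

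Interstitial macrophages had 907 CPM of Il1b in the Plaur KO library and 1125 CPM in the WT library, and cDC2, the dendritic cells that prime helper T cells, had 670 CPM in the Plaur KO library and 1162 CPM in the WT library. Alveolar macrophages had 641 CPM in the Plaur KO library and 540 CPM in the WT library. CCR7 dendritic cells, the migrating form, had 447 CPM in the Plaur KO library and 756 CPM in the WT library. Nonclassical monocytes, which patrol vessels, had 441 CPM in the Plaur KO library and 523 CPM in the WT library. The lowest myeloid level was in cDC1, the cross-presenting dendritic cells, with 218 CPM in the Plaur KO library and 168 CPM in the WT library. In the order of levels, cDC2 and alveolar macrophages, and CCR7 dendritic cells and nonclassical monocytes, had overlapping intervals in the Plaur KO library. In the WT library cDC2, plasma cells and interstitial macrophages overlapped, as did alveolar macrophages and nonclassical monocytes.

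The neutrophils fell into 5 clusters that differed more in Il1rn, Il1a and Il1r2 than in Il1b. Cluster 0 was led by Retnlg, S100a8 and Mmp8, cluster 1 by Slc40a1 and Ptgs2, cluster 2 by Cass4 and Acod1, cluster 3 by F3 and Egln3, and cluster 20 by interferon-induced genes such as Rsad2. Their numbers were unequal between libraries: cluster 0 had 945 Plaur KO cells and 251 WT cells, cluster 20 had 150 Plaur KO cells and 11 WT cells, and clusters 1, 2 and 3 had 832, 494 and 894 Plaur KO cells against 766, 487 and 761 WT cells. Il1b was lower in the Plaur KO library in clusters 0, 1, 2 and 3, with log2 ratios of -0.34, -0.14, -0.22 and -0.23. In cluster 20 the ratio was -0.16 with an interval of -0.34 to 0.02. With each cluster weighted alike, the Il1b ratio in neutrophils was -0.21.

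**Figure D2:**
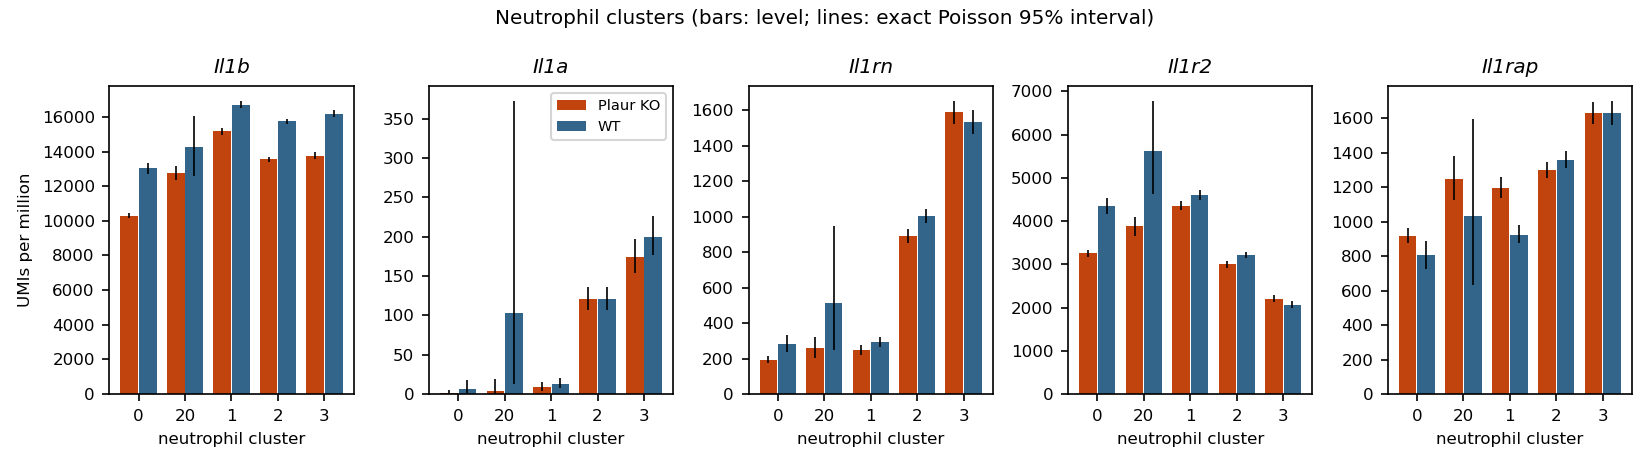
Levels of 5 genes in the 5 neutrophil clusters as CPM of the cluster, with Plaur KO bars left of WT bars and lines for the exact 95% Poisson interval. Il1rn, Il1a and Il1rap were highest in cluster 3, where Il1r2 was lowest, and Il1b was highest in cluster 1.

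Il1a, the cytokine that can act without being cut, followed another pattern. Its highest levels were in alveolar macrophages, with 203 CPM in the Plaur KO library and 173 CPM in the WT library, and in interstitial macrophages, with 188 CPM in each library. Within interstitial macrophages it was concentrated in cluster 7, led by Gpnmb and Trem2, at 304 CPM in the Plaur KO library and 235 CPM in the WT library. Cluster 6, led by Ccl12 and Pf4, had 59.5 CPM in the Plaur KO library and 45.9 CPM in the WT library. Neutrophils had 73.9 CPM in the Plaur KO library and 103 CPM in the WT library (log2 ratio -0.48, interval -0.65 to -0.31), nearly all of it in clusters 2 and 3. Those clusters had 121 and 175 CPM in the Plaur KO library, against 121 and 200 CPM in the WT library, whereas clusters 0 and 1 had 1.91 and 8.48 CPM in the Plaur KO library and 6.16 and 13.04 CPM in the WT library. For every 100 Il1b UMIs, alveolar macrophages had 31.7 Il1a UMIs in the Plaur KO library and 32.1 in the WT library, and neutrophils 0.572 in the Plaur KO library and 0.652 in the WT library.

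Il18, the inducer of interferon-gamma, was a gene of alveolar macrophages. They had 440 CPM in the Plaur KO library (interval 420 to 461) and 480 CPM in the WT library (466 to 496), a log2 ratio of -0.13 (interval -0.21 to -0.05). They held 63.5% of all Il18 UMIs in the Plaur KO library and 87.6% in the WT library, and made up 6.64% of the kept Plaur KO cells and 11.9% of the kept WT cells. At least 1 UMI was found in 83.2% of Plaur KO and 88.7% of WT alveolar macrophages. In NK cells, which had 3 Il18 UMIs in the Plaur KO library and 2 in the WT library, the share was 0.634% in the Plaur KO library and 0.627% in the WT library, at median depths of 2382 UMIs (Plaur KO) and 2827 UMIs (WT), against 6532.5 (Plaur KO) and 7668 (WT) in the macrophages. After thinning each cell to 1000 UMIs, the share in alveolar macrophages was 33.2% in the Plaur KO library and 36.9% in the WT library. The next levels were in cDC1, with 50.6 CPM in the Plaur KO library and 37.3 CPM in the WT library, and classical monocytes, with 46.8 CPM (Plaur KO) and 34.1 CPM (WT). Interstitial macrophages had only 17.6 CPM in the Plaur KO library and 15.6 CPM in the WT library, so the lung macrophage classes stood far apart in Il18 and close in Il1a.

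Il1rn, the receptor antagonist, was highest in neutrophils, followed by interstitial macrophages. Neutrophils had 696 CPM in the Plaur KO library and 891 CPM in the WT library (log2 ratio -0.36, interval -0.41 to -0.30). They held 44.4% of all Il1rn UMIs in the Plaur KO library and 44.5% in the WT library. The level ran unevenly over the neutrophil clusters. Clusters 0 and 1 had 194 and 248 CPM in the Plaur KO library and 281 and 292 CPM in the WT library. Clusters 2 and 3 had 892 and 1589 CPM in the Plaur KO library and 1004 and 1534 CPM in the WT library. With each cluster weighted alike, the ratio in neutrophils was -0.19. That setting counts cluster 20 as much as the others, though it had only 10 Il1rn UMIs in 11 WT cells (interval 247 to 949 CPM).

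Interstitial macrophages had 496 CPM of Il1rn in the Plaur KO library and 422 CPM in the WT library (log2 ratio 0.23, interval 0.15 to 0.31). Classical monocytes had 272 CPM in the Plaur KO library and 400 CPM in the WT library. Alveolar macrophages had 199 CPM in the Plaur KO library and 188 CPM in the WT library, and cDC2 had 116 CPM (Plaur KO) and 172 CPM (WT). At least 1 Il1rn UMI was found in 50.5% of Plaur KO and 59.3% of WT neutrophils. In B cells, which should lack it, the share was 0.710% in the Plaur KO library and 0.602% in the WT library at median depths of 2048.5 UMIs (Plaur KO) and 2335.5 UMIs (WT), against 1729 (Plaur KO) and 1746 (WT) in neutrophils. The counts do not separate the secreted antagonist from its intracellular form.

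Set against Il1b in the same cells, the antagonist stood higher in macrophages than in neutrophils. For every 100 Il1b UMIs, interstitial macrophages had 54.6 Il1rn UMIs in the Plaur KO library (interval 51.8 to 57.6) and 37.5 in the WT library (35.9 to 39.3). Alveolar macrophages had 31.0 in the Plaur KO library and 34.9 in the WT library, and cDC2 had 17.3 in the Plaur KO library and 14.8 in the WT library. The alveolar clusters 9 and 10 went opposite ways. Cluster 9 had 29.8 (Plaur KO) and 39.4 (WT), and cluster 10 had 39.4 (Plaur KO) and 22.8 (WT). Neutrophils had 5.39 in the Plaur KO library and 5.63 in the WT library. Within neutrophils the quotient was 1.88 and 1.64 in clusters 0 and 1 of the Plaur KO library and 6.58 and 11.6 in its clusters 2 and 3, against 2.16, 1.74, 6.38 and 9.48 in the same clusters of the WT library. The quotient compares UMIs of 3′ ends of different RNAs and is not a molar ratio of proteins. In interstitial macrophages its Il1b part is unsettled between the libraries. The Il1b ratio there changed sign with each library clustered alone and without cells holding neutrophil RNA, as given further on. The part of neutrophil RNA in the quotients was not tested.

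Il1r2, the decoy receptor, was a neutrophil transcript. Neutrophils had 3186 CPM in the Plaur KO library and 3386 CPM in the WT library, a log2 ratio of -0.09 that became 0.02 with TMM factors and 0.03 with DESeq2 size factors. These scalings moved the median of all genes in neutrophils by 0.11 and 0.12. At least 1 Il1r2 UMI was found in 93.0% of Plaur KO and 91.6% of WT neutrophils, and in 2.04% of Plaur KO and 1.54% of WT B cells. Cluster 3, the highest in Il1rn, was the lowest in Il1r2, at 2209 CPM in the Plaur KO library and 2069 CPM in the WT library, and cluster 1 had 4359 CPM in the Plaur KO library and 4596 CPM in the WT library. Monocyte cluster 18 had 1156 CPM in the Plaur KO library and 1608 CPM in the WT library, and cluster 14 had 40.1 CPM (Plaur KO) and 20.3 CPM (WT). Soluble and membrane forms of the decoy cannot be told apart in these counts.

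Among the T cell classes, regulatory T cells had 55.2 CPM of Il1r2 in the Plaur KO library (23 UMIs in 10 of 149 cells). In the WT library they had 46.8 CPM (25 UMIs in 15 of 166 cells). T cells led by Ccl1, Tnfsf8 and Il17f had 26.1 CPM (Plaur KO) and 40.3 CPM (WT), and their intervals overlapped those of regulatory T cells in each library. Plasma cells stood higher, at 264 CPM (Plaur KO) and 239 CPM (WT). So did plasmacytoid dendritic cells, at 430 CPM (Plaur KO) and 530 CPM (WT). In plasma cells 70 of 440 Il1r2 UMIs lay in 1 Plaur KO cell and 138 of 329 in 1 WT cell. In plasmacytoid dendritic cells 38 of 241 lay in 1 Plaur KO cell and 77 of 281 in 1 WT cell. Il1b per neutrophil RNA UMI in both classes, given further on, was near that of neutrophils. The part of neutrophil RNA in their Il1r2 levels was not tested. CD4 T cells had 6.85 CPM in the Plaur KO library and 7.20 CPM in the WT library. Regulatory T cells held 0.256 Il1r2 UMIs per neutrophil RNA UMI (the 8 genes named further on) in the Plaur KO library and 0.481 in the WT library, against 0.0266 in Plaur KO and 0.0354 in WT neutrophils. On the log2 scale the quotient was 3.26 above that of neutrophils in the Plaur KO library and 3.76 above it in the WT library. In interstitial macrophages Il1r2 was 39.7 CPM in the Plaur KO library and 86.8 CPM in the WT library. That difference was carried by cluster 7, with 53.6 CPM (Plaur KO) and 107 CPM (WT), and cluster 6 had 24.4 CPM in the Plaur KO library and 24.2 CPM in the WT library. In cluster 7 the Il1r2 UMIs sat in 17 of 297 Plaur KO cells and 57 of 527 WT cells. Up to 44 lay in 1 Plaur KO cell and up to 74 in 1 WT cell, so few cells set the level. Neutrophil RNA in the interstitial macrophages was 1592 CPM in the Plaur KO library and 2335 CPM in the WT library, and its part in the Il1r2 difference was not tested. The log2 ratio of -1.13 was -0.04 with doublet calls kept and -0.05 with each library clustered alone.

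Il18bp, the interleukin-18 binding protein, was sparse, with 304 UMIs in the Plaur KO library and 448 in the WT library. Interstitial macrophages led with 23.6 CPM in the Plaur KO library and 33.1 CPM in the WT library (log2 ratio -0.49, interval -0.85 to -0.14). Alveolar macrophages had 12.2 CPM in the Plaur KO library and 15.03 CPM in the WT library. Within them it was concentrated in cluster 10, led by Cfb and Cxcl9, at 84.1 CPM in the Plaur KO library (43 cells) and 67.6 CPM in the WT library (115 cells). The larger cluster 9, led by Car4 and Ear1, had 5.54 CPM in the Plaur KO library and 7.78 CPM in the WT library.

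The interleukin-18 receptor genes Il18r1 and Il18rap lie next to each other on chromosome 1 but were highest in partly different cells. Il18r1 (chr1:40465552-40500854, GRCm38.p6, plus strand) encodes the binding chain and Il18rap (chr1:40515362-40551707, plus strand) the accessory chain. The 250 bases before the first listed start of each gene, from RefSeq on GRCm38.p6, are shown because Il18rap was high in neutrophils, where its upstream neighbour was low. Capitals mark GAGGAAGT, a purine-rich sequence with the GGAA core that Ets family factors bind, chosen after looking at matches.
Il18rap, chr1:40515112-40515361, plus strand: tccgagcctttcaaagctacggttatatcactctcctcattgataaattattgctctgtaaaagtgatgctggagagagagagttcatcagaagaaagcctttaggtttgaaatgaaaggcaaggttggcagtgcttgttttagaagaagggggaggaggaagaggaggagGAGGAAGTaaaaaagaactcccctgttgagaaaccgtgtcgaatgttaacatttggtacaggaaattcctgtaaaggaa
Il18r1, chr1:40465302-40465551, plus strand: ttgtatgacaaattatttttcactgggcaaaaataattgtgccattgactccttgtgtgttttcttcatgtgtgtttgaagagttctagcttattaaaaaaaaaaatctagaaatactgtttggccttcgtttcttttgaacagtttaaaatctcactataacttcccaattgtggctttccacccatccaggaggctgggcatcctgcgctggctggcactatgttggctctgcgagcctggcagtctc
The match in Il18rap starts 79 bases before the start, at the end of a run of G and A. Il18r1 has no match to the whole marked sequence in this window. The GGAA core alone occurs in both windows, in Il18r1 as TTCC, its reading on the other strand. On either strand (ACTTCCTC on the other), the same letters occur in 802 of 32851 mouse promoter windows of 250 bases, or 2.44%, and in 1 of the 10 genes described here, all of which were in the table with 15 starts in all. A match is a description of letters, not a binding site, and no match says nothing about the factor.

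Il18r1 was a lymphocyte gene. Gamma-delta T cells had 617 CPM in the Plaur KO library and 732 CPM in the WT library, NK cells 361 CPM (Plaur KO) and 437 CPM (WT), T cells led by Sidt1, Gramd3 and Ifngas1 318 CPM (Plaur KO) and 377 CPM (WT), and regulatory T cells 312 CPM (Plaur KO) and 294 CPM (WT). CD8 T cells had 223 CPM in the Plaur KO library and 306 CPM in the WT library (log2 ratio -0.45, interval -0.69 to -0.22), and CD4 T cells had 204 CPM (Plaur KO) and 272 CPM (WT) (-0.42, interval -0.64 to -0.19). NK cells differed in the same direction, with a log2 ratio of -0.28 (interval -0.47 to -0.08). Among CD4 T cells cluster 100, led by Lef1, had 58.4 CPM in the Plaur KO library and 83.5 CPM in the WT library. Cluster 107, led by Icos, Il23r and Cxcr6, had 506 CPM in the Plaur KO library and 647 CPM in the WT library. Neutrophils had 25.8 CPM in the Plaur KO library and 27.5 CPM in the WT library, and B cells had 2.93 CPM (Plaur KO) and 5.57 CPM (WT).

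Il18rap was highest in NK cells and neutrophils. NK cells had 729 CPM in the Plaur KO library and 752 CPM in the WT library, and neutrophils had 514 CPM (Plaur KO) and 535 CPM (WT). Neutrophils held 51.4% of all Il18rap UMIs in the Plaur KO library and 53.2% in the WT library. At least 1 UMI was found in 59.3% of Plaur KO and 58.1% of WT neutrophils. In B cells, at higher median depth, the share was 0.266% in the Plaur KO library and 0.535% in the WT library. Monocyte cluster 14, without the neutrophil markers, had 11.5 CPM in the Plaur KO library and 10.2 CPM in the WT library, and cluster 18 had 189 CPM (Plaur KO) and 248 CPM (WT). T cells led by Sidt1, Gramd3 and Ifngas1 had 150 CPM in the Plaur KO library and 190 CPM in the WT library, CD8 T cells 139 CPM (Plaur KO) and 169 CPM (WT), group 2 innate lymphoid cells 137 CPM (Plaur KO) and 167 CPM (WT), and CD4 T cells 51.0 CPM (Plaur KO) and 61.5 CPM (WT). NK cells thus stood near the top of the order for both chains, and neutrophils only for the accessory chain.

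**Figure D3:**
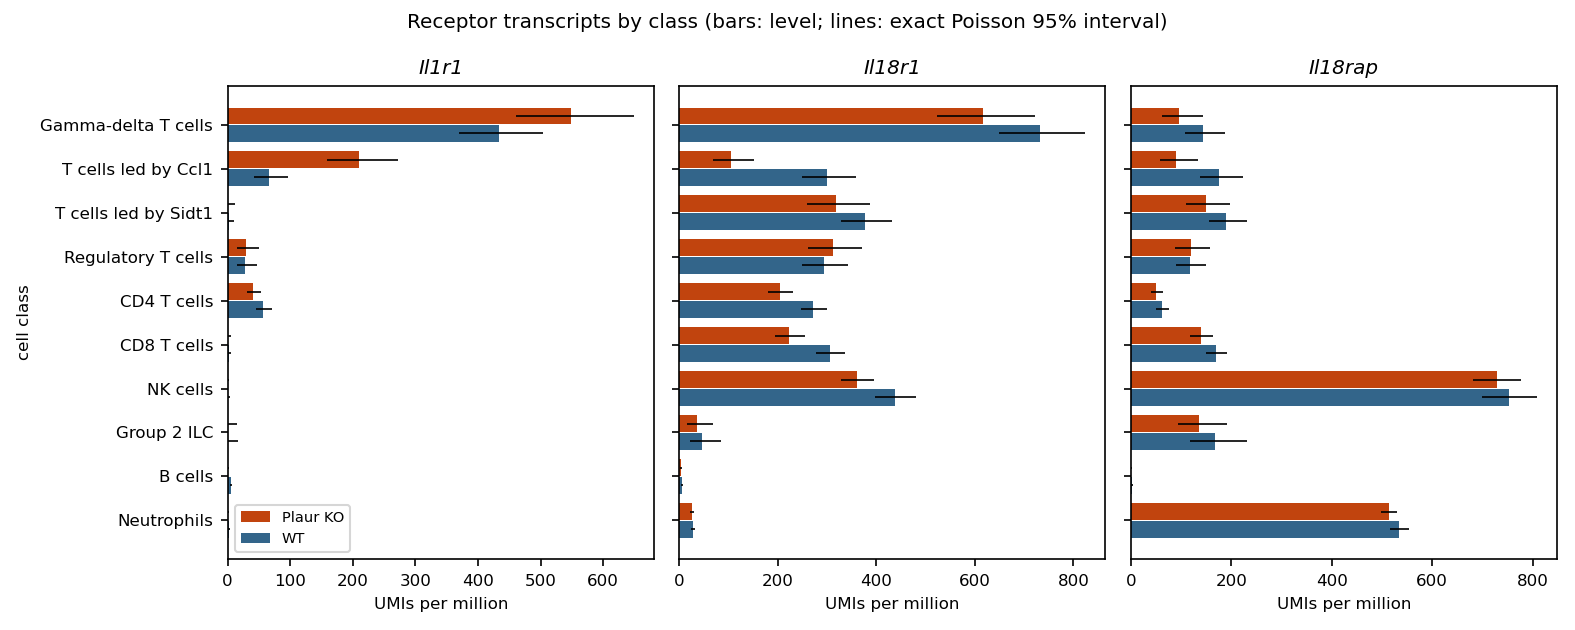
Levels of Il1r1, Il18r1 and Il18rap in 10 classes as CPM, with Plaur KO bars above WT bars and lines for the exact 95% Poisson interval. Gamma-delta T cells had high Il1r1 and Il18r1, NK cells had Il18r1 and Il18rap, and neutrophils had Il18rap with little of the other genes.

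Il1r1, the signalling receptor of interleukin-1, was found in few sorted cells, with 417 UMIs in the Plaur KO library and 565 in the WT library. Gamma-delta T cells had 549 CPM in the Plaur KO library (137 UMIs in 67 cells) and 433 CPM in the WT library (165 UMIs in 92 cells). At least 1 UMI was found in 68.7% of the Plaur KO and 67.4% of the WT cells, or 31.8% (Plaur KO) and 31.9% (WT) after thinning to 1000 UMIs. The share was 0.271% of Plaur KO and 0.395% of WT neutrophils, at median depths of 1729 UMIs (Plaur KO) and 1746 UMIs (WT), against 3495 (Plaur KO) and 4120.5 (WT) in gamma-delta T cells. In NK cells it was 0 of 473 Plaur KO cells and 0 of 319 WT cells, which allows levels of up to 2.38 CPM (Plaur KO) and 3.04 CPM (WT) at 3 counts. CD4 T cells had 41.1 CPM in the Plaur KO library and 57.0 CPM in the WT library. Of their UMIs, 51 of 54 in the Plaur KO library and 74 of 87 in the WT library lay in cluster 107, at 172 CPM (Plaur KO) and 206 CPM (WT). Among 16 fibroblast-like cells in each library, too few for a comparison, Il1r1 had 37 UMIs in the Plaur KO library and 108 in the WT library. The sort left out most non-blood cells, in which the receptor is known to be common.

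Il1rap, the accessory chain shared by the interleukin-1 and interleukin-33 receptors, was most abundant in neutrophils. They had 1237 CPM in the Plaur KO library and 1267 CPM in the WT library (log2 ratio -0.03, interval -0.08 to 0.01), in 77.7% of Plaur KO and 73.2% of WT cells. Cluster 3 was highest at 1628 CPM in the Plaur KO library and 1629 CPM in the WT library. Classical monocytes had 396 CPM in the Plaur KO library and 521 CPM in the WT library, interstitial macrophages 68.2 CPM (Plaur KO) and 71.4 CPM (WT), cDC2 60.1 CPM (Plaur KO) and 95.4 CPM (WT), and alveolar macrophages 57.2 CPM (Plaur KO) and 45.3 CPM (WT). B cells had 23.1 CPM in the Plaur KO library and 24.0 CPM in the WT library, and the NK, CD4 and CD8 T cells lay between 23.6 and 28.5 CPM in the Plaur KO library and between 24.9 and 37.1 CPM in the WT library. Neutrophils were thus the highest class for the decoy and the accessory chain, and had only 9 Il1r1 UMIs in 3315 Plaur KO cells and 12 in 2276 WT cells. Membrane and soluble forms of Il1rap are not told apart here.

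A small class of T cells led by Ccl1, Tnfsf8 and Il17f differed between the libraries in the receptor genes. It had 90 cells in the Plaur KO library and 111 in the WT library, below the number set for a comparison, and was singled out after its values were seen. Il1r1 was 209 CPM in the Plaur KO library (56 UMIs) and 65.5 CPM in the WT library (26 UMIs), a log2 ratio of 1.67 (interval 0.98 to 2.40). Il18r1 was 105 CPM in the Plaur KO library (28 UMIs) and 300 CPM in the WT library (119 UMIs), a log2 ratio of -1.52 (interval -2.17 to -0.92). Il18rap was 89.6 CPM in the Plaur KO library and 176 CPM in the WT library. The tenth of cells with most Il1r1 held 73.2% of its UMIs in the Plaur KO library and 84.6% in the WT library, so a few cells set the level. Of the 3 genes with at least 50 UMIs, 2 differed by 2-fold or more, against 2.3% of the 2563 genes counted. Of 7 other cytokine genes read in this class, Il5, Ccl1 and, narrowly, Il17f had intervals that did not overlap. Il5 was 291 CPM in the Plaur KO library and 116 CPM in the WT library, and Ccl1 was 2333 CPM (Plaur KO) and 978 CPM (WT). The intervals overlapped for Il17a, at 739 CPM (Plaur KO) and 809 CPM (WT), and Il13, at 422 CPM (Plaur KO) and 348 CPM (WT). They also overlapped for Il10, at 676 CPM (Plaur KO) and 660 CPM (WT), and Ifng, at 183 CPM (Plaur KO) and 255 CPM (WT). Il17f was 717 CPM (interval 619 to 826) in the Plaur KO library and 918 CPM (interval 826 to 1017) in the WT library. The part of cell makeup in the receptor differences was not tested.

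Il1b UMIs were also found in lymphocytes, which do not normally make the cytokine. Their level was compared with neutrophil RNA, measured as the sum of S100a8, S100a9, Retnlg, Csf3r, Cxcr2, Mmp9, Hdc and Trem1. B cells had 53.8 CPM of Il1b in the Plaur KO library (147 UMIs) and 27.8 CPM in the WT library (115 UMIs). NK cells had 57.9 CPM in the Plaur KO library (73 UMIs) and 15.2 CPM in the WT library (15 UMIs), CD4 T cells 35.8 CPM (Plaur KO) and 18.3 CPM (WT), and CD8 T cells 25.7 CPM (Plaur KO) and 24.3 CPM (WT). Neutrophil RNA in the same classes was higher in the Plaur KO library too, at 273 CPM in B, 209 CPM in NK, 244 CPM in CD4 and 168 CPM in CD8 T cells of the Plaur KO library, against 102, 91.1, 89.7 and 108 CPM in the same classes of the WT library. The Plaur KO library also held more neutrophils.

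In neutrophils there were 0.108 Il1b UMIs for each neutrophil RNA UMI in the Plaur KO library and 0.165 in the WT library. In the B, NK, CD4 and CD8 T cells together the quotient was 0.195 in the Plaur KO library (293 over 1501 UMIs) and 0.240 in the WT library (194 over 809 UMIs). This lay above the neutrophil quotient by 0.86 on the log2 scale in the Plaur KO library (interval 0.68 to 1.02) and by 0.54 in the WT library (0.33 to 0.74). Plasma cells had quotients of 0.0899 in the Plaur KO library and 0.179 in the WT library, and plasmacytoid dendritic cells 0.136 in the Plaur KO library and 0.170 in the WT library, both near that of neutrophils. Their Il1b levels were high, at 1177 CPM in Plaur KO and 1128 CPM in WT plasma cells, and 1890 CPM in Plaur KO and 1958 CPM in WT plasmacytoid dendritic cells. Most of it sat in few cells: the tenth of cells with most Il1b held 81.7% of the UMIs of Plaur KO and 83.3% of those of WT plasma cells. Macrophages stood apart, with 0.642 in Plaur KO and 1.41 in WT alveolar macrophages, and 0.570 in Plaur KO and 0.482 in WT interstitial macrophages.

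**Figure D4:**
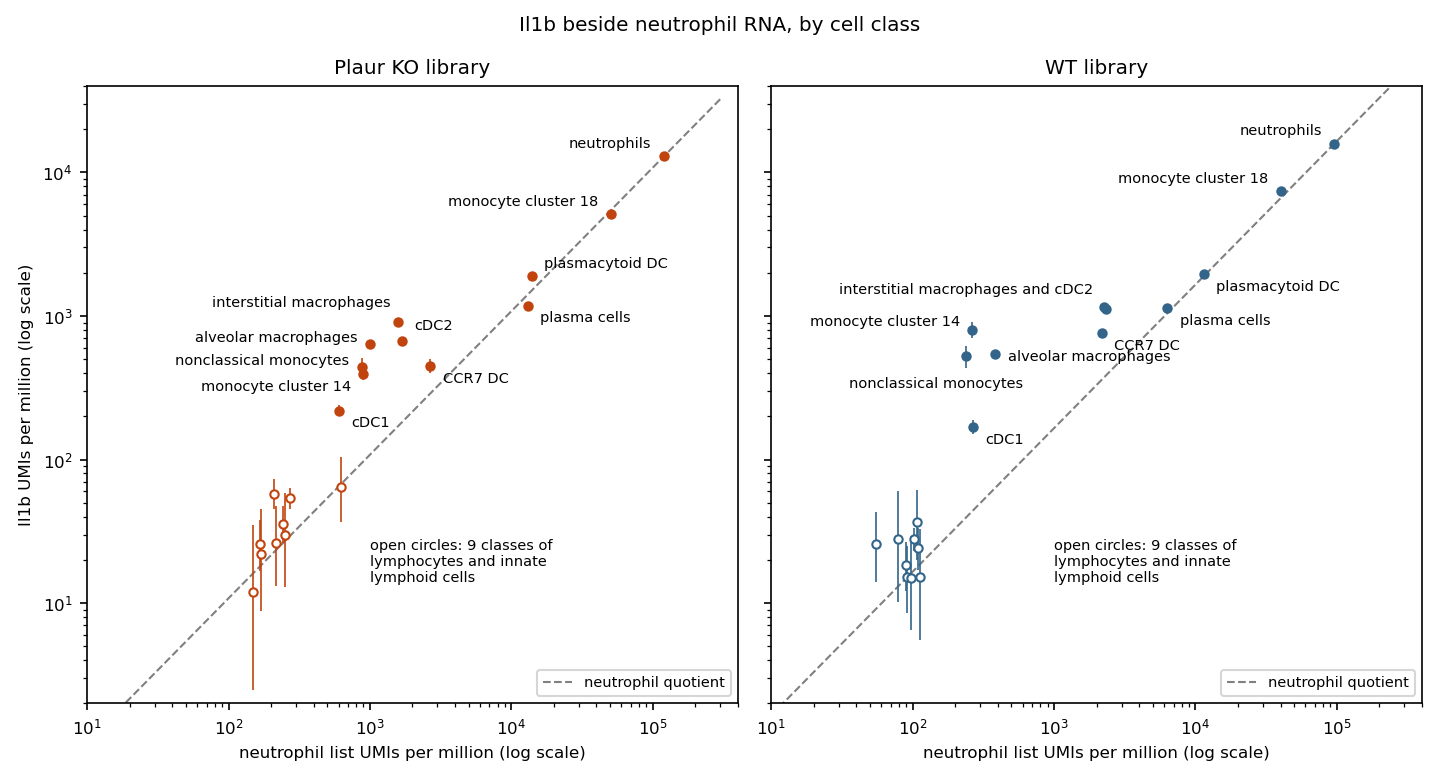
Il1b (vertical axis) against neutrophil RNA (horizontal axis) by class, both as CPM on log scales, with the Plaur KO library left and the WT library right. The dashed line is the neutrophil quotient of that library (0.108 in Plaur KO and 0.165 in WT), lines are exact 95% Poisson intervals, and macrophages, cDC2 and nonclassical monocytes lie well above it. Among lymphocytes, B cells lie above it in both libraries and NK cells in the Plaur KO library, and CD8 T cells have intervals that include it.

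Cells without a single neutrophil RNA UMI were set apart, a choice made after seeing the data. Among the 4 lymphocyte classes these were 1413 Plaur KO cells with 33.5 CPM of Il1b (117 UMIs) and 2109 WT cells with 19.8 CPM (120 UMIs). At least 1 Il1b UMI was found in 7.57% of these Plaur KO cells and 5.60% of these WT cells, against 8.95% of Plaur KO and 5.94% of WT lymphocytes with neutrophil RNA. Alveolar macrophages without neutrophil RNA had 409 CPM in the Plaur KO library and 412 CPM in the WT library, interstitial macrophages 584 CPM (Plaur KO) and 509 CPM (WT), cDC2 468 CPM (Plaur KO) and 760 CPM (WT), and monocyte cluster 14 had 280 CPM (Plaur KO) and 811 CPM (WT). Il1b was higher in each of these myeloid groups than in lymphocytes chosen the same way. The lymphocyte level rests on few cells and depends on doublet removal. With doublet calls kept, the lymphocyte classes held 7101 Il1b UMIs in the Plaur KO library and 5990 in the WT library, of which 6196 (Plaur KO) and 4049 (WT) lay in 216 Plaur KO and 116 WT barcodes called as doublets. The quotient was then above that of neutrophils by 0.12 in each library. Among the barcodes not called as doublets in that clustering, the direction between libraries turned, with 140 CPM of Il1b in the Plaur KO library and 231 CPM in the WT library, and 6016 neutrophil RNA UMIs in the Plaur KO library and 11426 in the WT library. In B cells it was 72.8 CPM (Plaur KO) and 133 CPM (WT), in CD8 T cells 367 CPM (Plaur KO) and 782 CPM (WT), and in CD4 T cells and NK cells it stayed higher in the Plaur KO library. Without the 1% of lymphocytes with most Il1b, the quotient was above that of neutrophils by 0.29 in the Plaur KO library and 0.09 in the WT library. Free RNA, undetected doublets and RNA of the lymphocytes themselves cannot be told apart here.

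Across the 10 compared classes, few of the genes differed by 2-fold or more between the libraries. In neutrophils 0 of the 9 genes with at least 50 UMIs did, where 2.81% of all 7339 genes counted did. All 9 were lower in the Plaur KO library by sign, with a median log2 ratio of -0.09 beside -0.05 over all genes. With TMM or DESeq2 factors, Il1r2, Il1rap, Il18r1, Il18rap and Il18bp turned to higher in the Plaur KO library, while Il1a, Il1b, Il1rn and Il18 did not. The call was Il1a alone of 9 genes in classical monocytes (background 3.13%), Il1r2 alone of 10 in interstitial macrophages (2.07%), Il1b alone of 4 in NK cells (0.736%) and Il1r2 alone of 4 in B cells (0.633%). There were 0 of 8 in alveolar macrophages (0.919%), 0 of 9 in cDC2 (2.01%), 0 of 4 in cDC1 (1.32%), 0 of 5 in CD4 T cells (0.617%) and 0 of 4 in CD8 T cells (1.07%). In CCR7 dendritic cells, with fewer cells, it was Il18rap alone of 5 (3.78%), at 16 UMIs in the Plaur KO library and 46 in the WT library.

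**Figure D5:**
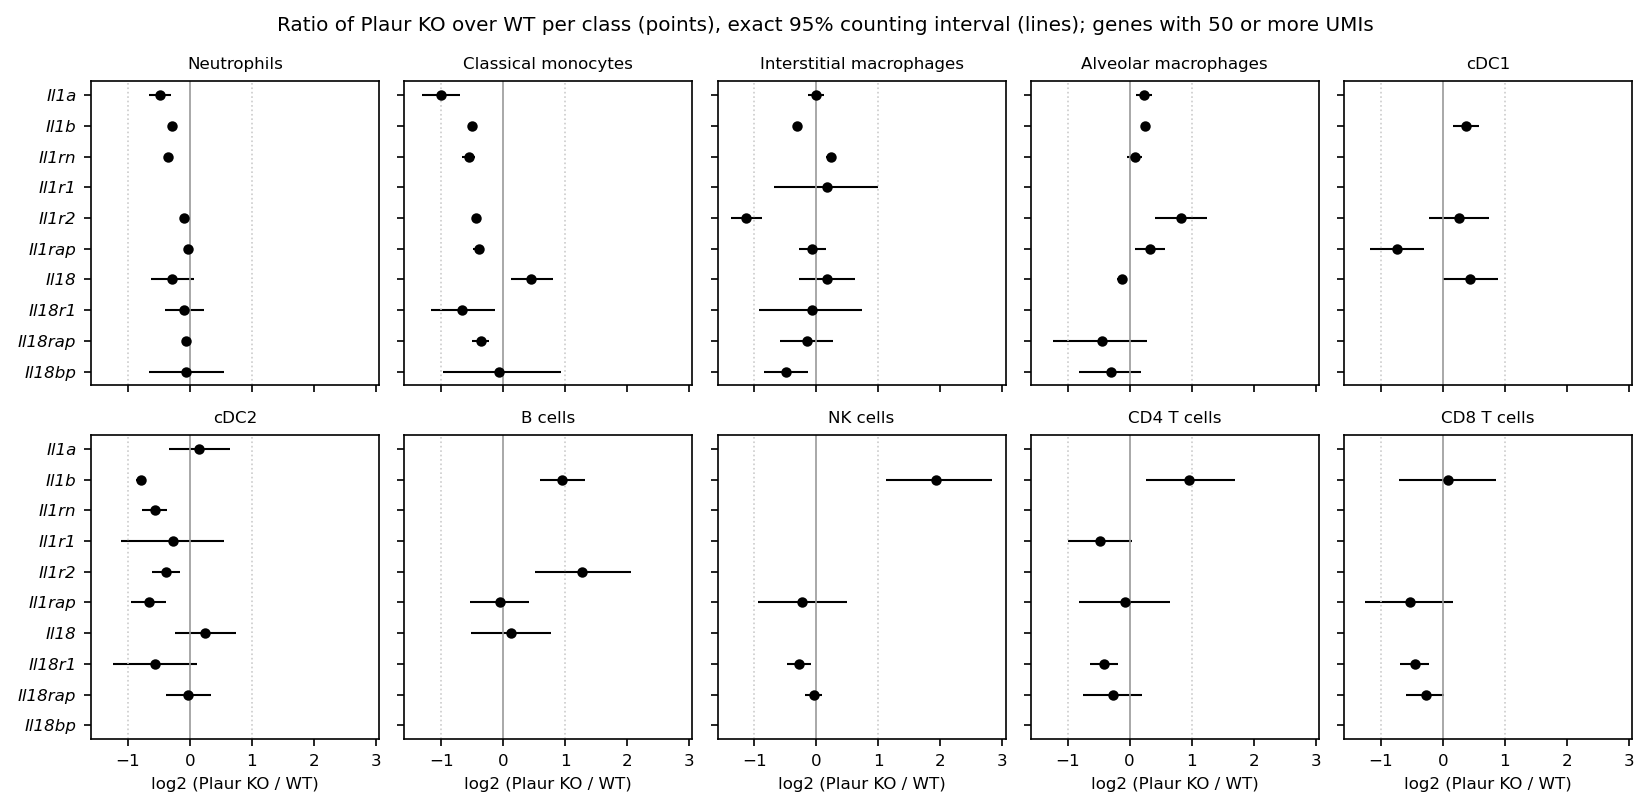
The log2 ratio of the Plaur KO library over the WT library (horizontal axis) for genes with at least 50 UMIs in each of the 10 compared classes, with exact 95% counting intervals, and dotted lines at 2-fold. In classical monocytes and cDC2 the points lie mostly below 0, as do those of neutrophils, where 5 of 9 turn to above 0 with TMM or DESeq2 factors, and those of alveolar macrophages and cDC1 on both sides.

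Most of the genes were also lower in the Plaur KO library in classical monocytes and cDC2. In classical monocytes 8 of 9 genes were lower, with a median of -0.44. Il1a was 26.6 CPM in the Plaur KO library and 53.4 CPM in the WT library (log2 ratio -1.01, interval -1.31 to -0.70), and after thinning the ratio was -0.54. Of its UMIs, 282 of 283 in the Plaur KO library and 133 of 133 in the WT library lay in cluster 18. The Il1a difference therefore belongs to the cluster that also carries neutrophil RNA. Without cluster 18, only cluster 14 was left, with 174 Plaur KO cells and 59 WT cells. There Il1b had a ratio of -1.03 and Il1rn of -1.53, while Il1r2, Il1rap and Il18rap changed sign to 0.98, 0.33 and 0.17. Il1r2 and Il18rap each had fewer than 50 UMIs in cluster 14 over both libraries. Their sign changes are therefore limited by depth and do not show a reversal. The median of all genes in classical monocytes moves by 0.11 with TMM factors. In cDC2, 7 of 9 genes were lower, with a median of -0.39 beside 0.01 over all genes. Il1b had a ratio of -0.79 (interval -0.87 to -0.71), Il1rap of -0.67 and Il1rn of -0.57 there. The Il1b ratio in cDC2 was -0.29 with doublet calls kept and -0.70 without cells holding neutrophil RNA.

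By sign alone, 4 of 5 genes in CD4 T cells, 3 of 4 in CD8 T cells and 3 of 4 in NK cells were lower in the Plaur KO library. Their medians were -0.27, -0.37 and -0.14, beside 0.03, -0.01 and 0.03 over all genes. In B cells 3 of 4 and in alveolar macrophages 5 of 8 were higher, with medians of 0.54 and 0.15 beside 0.03 and -0.01. These counts rest on few genes, and some members differed little, such as Il18rap in NK cells. In alveolar macrophages Il1b had a ratio of 0.25 (interval 0.18 to 0.32) and Il1a of 0.23, and that of Il1b was -0.01 without cells holding neutrophil RNA. In interstitial macrophages Il1b had a ratio of -0.31 (interval -0.37 to -0.25), which was 0.06 with each library clustered alone and 0.20 without cells holding neutrophil RNA. In cDC1 the Il1b ratio of 0.38 was -0.63 without those cells. Il1b in NK cells had a ratio of 1.93 (interval 1.11 to 2.84), with up to 24 UMIs in 1 Plaur KO cell and up to 2 in 1 WT cell, and it was 0.50 without cells holding neutrophil RNA. Il1r2 in B cells had 40 UMIs in the Plaur KO library and 25 in the WT library, with up to 11 in 1 Plaur KO cell. The part of neutrophil RNA in these ratios was not tested.

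The genes that process and transmit these cytokines were taken from lists of 20 inflammasome and release genes and 20 signalling genes downstream of the receptors. In neutrophils 14 inflammasome genes had at least 50 UMIs, of which 3 were higher and 11 lower in the Plaur KO library, with a median of -0.13 beside -0.05 over all genes. With TMM or DESeq2 factors it was 5 higher and 9 lower, with medians of -0.017 (TMM) and -0.0084 (DESeq2). Casp1, which cuts both precursors, was 31.0 CPM in the Plaur KO library and 17.0 CPM in the WT library, and Casp4, a caspase that senses endotoxin, was 315 CPM (Plaur KO) and 285 CPM (WT). Nlrp3, the sensor of the main inflammasome, was 598 CPM in the Plaur KO library and 774 CPM in the WT library, and Nlrp1b, another sensor, 21.3 CPM (Plaur KO) and 33.4 CPM (WT). Of 19 signalling genes 5 were higher and 14 lower, with a median of -0.17. With either scaling it was 9 higher and 10 lower, with medians of -0.058 (TMM) and -0.049 (DESeq2). The kinase gene Irak4 was 89.7 CPM in the Plaur KO library and 54.2 CPM in the WT library, and Chuk, a kinase of the NF-kB pathway, was 37.4 CPM (Plaur KO) and 35.2 CPM (WT). Irak2, a kinase of the same receptor complex as Irak4, was 491 CPM in the Plaur KO library and 789 CPM in the WT library, and Nfkb1, an NF-kB subunit, was 295 CPM (Plaur KO) and 457 CPM (WT). No listed gene in neutrophils differed by 2-fold or more.

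In classical monocytes 15 of 18 inflammasome genes and 15 of 20 signalling genes were lower in the Plaur KO library, with medians of -0.16 and -0.28 beside -0.04 over all genes. With TMM factors it was 12 of 18 and 13 of 20, and with DESeq2 factors 13 of 18 and 13 of 20. Cluster 18, which also carries neutrophil RNA, held 9602113 of the 10648989 UMIs of this class in the Plaur KO library. In the WT library it held 2197720 of 2492659. The list values are those of the whole class, and the part of neutrophil RNA in them was not tested. Pycard, the inflammasome adaptor, was 287 CPM in the Plaur KO library and 181 CPM in the WT library, and Prtn3, a granule protease that can cut the precursors, 27.5 CPM (Plaur KO) and 6.42 CPM (WT). Aim2, the DNA sensor, was 50.5 CPM in the Plaur KO library and 82.6 CPM in the WT library, and Nfkbiz, an inducible NF-kB cofactor, was 344 CPM (Plaur KO) and 635 CPM (WT). In interstitial macrophages Irak3, an inhibitor of the receptor kinases, was 27.7 CPM in the Plaur KO library and 46.9 CPM in the WT library, and Nfkbia, the NF-kB inhibitor, was 940 CPM (Plaur KO) and 754 CPM (WT). In alveolar macrophages 13 of 20 signalling genes were higher, led by Nfkbiz at 89.8 CPM in the Plaur KO library and 49.97 CPM in the WT library. In cDC2, Irak2 was 76.8 CPM in the Plaur KO library and 122 CPM in the WT library, and 14 of 19 signalling genes were lower. In NK cells, Nfkbia was 178 CPM in the Plaur KO library and 341 CPM in the WT library, with 12 of 16 signalling genes lower. In B, CD4 and CD8 T cells the signalling genes with at least 50 UMIs were divided, with 10 higher and 10 lower, 10 and 7, and 7 and 9. The lists were not tested as sets.

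The genes most like each member in level were sought over 38 points, the 19 classes in each library, as Pearson correlations of log2(CPM + 10) among 11139 genes. The points share 2 libraries and differ in depth, so the values are a description. Il1b was most like Nlrp3 (r = 0.96), Cebpd (0.96) and Cd14 (0.96), and Il1a was most like Inhba (0.97), Gm6209 (0.95) and Alas1 (0.95). Il18 was most like Sh3tc1 (0.91), Plet1 (0.88) and Aldoc (0.88). Among the brakes, Il1rn was most like Slc7a11 (0.96), Ptafr (0.95) and Tnfaip2 (0.95), Il1r2 like Cass4 (0.96), Cxcr2 (0.95) and Mmp9 (0.95), and Il18bp like Cstb (0.88), Pdpn (0.87) and 4930430E12Rik (0.86). Among the receptors, Il1r1 was most like Il23r (0.96), with Cd40lg (0.88) and Prickle1 (0.88) next. Il1rap was most like Lcn2 (0.97), Mirt2 (0.96) and Cstdc4 (0.96). Il18r1 was most like the T-cell genes Trbc1 (0.94), Lck (0.94) and Cd247 (0.93). Il18rap had the weakest best match, Rab37 (0.86), followed by D16Ertd472e (0.80) and Hk1 (0.80).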

How the data were processed

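The values used are UMI counts per gene and cell barcode, not normalized, as the authors deposited them, with barcodes already called as cells. The file headers name Cell Ranger 7.0.0, and the submitters' processing notes name Cell Ranger 7.1.0 and 7.0.0 and mm10. Antibody tags were not used here. Gene positions and promoters came from RefSeq (GRCm38.p6).

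A barcode entered the analysis if it had 200 or more genes and no more than 10% of its UMIs from mitochondria (61 Plaur KO and 80 WT barcodes failed). Scrublet, run in scanpy 1.11.5 on each library with an expected rate of 8%, called 457 Plaur KO and 260 WT doublets, which were dropped. Both libraries were clustered together on log-normalized values (3000 variable genes, 30 components, 15 neighbours, Leiden resolution 1 as implemented in igraph). Cells of clusters named from T cell or innate lymphoid sets were then clustered once more on their own with the same settings. In that second round further marker rules named the T cell subsets, and some clusters were named by their leading genes. Clusters were named from 25 marker sets. For a name, 3 markers had to be present in 20% or more of the cells and 2-fold over the other clusters. Unnamed clusters held 24 Plaur KO and 18 WT cells.

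UMIs were summed per library and class, since with 1 library per genotype no model could be tested. CPM have exact Poisson intervals, shares exact Clopper-Pearson intervals and log2 ratios exact conditional binomial intervals, all at 95%. On simulated counts with known ratios these intervals were checked for coverage. The limit for no UMIs was 3 counts. The threshold for a count of genes was 2-fold at 50 or more UMIs over both libraries. Gene lists, members and classes were chosen with earlier results of these data known. The rule for named genes took all 10 members in every class with 50 or more cells per library, per compared class the 2 highest and 2 lowest ratios of each list, and the 3 most like genes at 200 or more UMIs. In classes other than neutrophils only some of these list genes are given, picked after their values were seen. Python 3.11.15, numpy 2.4.6, scipy 1.17.1, R 4.3.3, edgeR 4.0.16 (TMM factors) and DESeq2 1.42.0 (size factors) were used. Thinning to 1000 UMIs left out 290 Plaur KO and 191 WT cells.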

Additional observations from a re-analysis of the deposited data

How the results depend on the processing

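Of 776 values of the 66 gene and class ratios recomputed under other settings, 656 stayed inside the counting interval of the reported value and 120 did not. The settings differed in this. With the T cells led by Ccl1 counted too, thinning to 1000 UMIs put 31 of 69 ratios outside and changed the sign of 14. Leaving out cells with neutrophil RNA put 25 of 55 outside and changed the sign of 14. In neutrophils, the Il1b ratio of -0.29 was -0.18 with TMM factors, -0.18 with DESeq2 size factors, -0.21 with each cluster weighted alike and -0.31 without the 1% of cells with most UMIs of the gene. The Il1rn ratio of -0.36 was -0.25 with TMM factors, -0.24 with DESeq2 size factors, -0.26 after thinning to 1000 UMIs and -0.19 with each cluster weighted alike. The Il1r2 ratio of -0.09 was 0.021 with TMM factors, 0.030 with DESeq2 size factors and -0.25 with each cluster weighted alike. Weighting clusters alike gave cluster 20, with 11 WT cells, as much weight as each other neutrophil cluster. The excess of Il1b per neutrophil RNA UMI in lymphocytes over neutrophils was 0.12 with doublet calls kept in the Plaur KO library and 0.12 in the WT library, where the reported values were 0.86 in the Plaur KO library and 0.54 in the WT library. Without the 1% of lymphocytes with most Il1b it was 0.29 in the Plaur KO library and 0.089 in the WT library, and without the 1% with most neutrophil RNA it was 0.55 in the Plaur KO library. The cause of these moves was not tested. No gene passed 2-fold in neutrophils under any setting run. Leaving out cells with neutrophil RNA and leaving out cluster 18 were chosen after seeing the data. With each library clustered alone, cDC2 had no named cluster in the WT library and so no value, and the T cells led by Ccl1 had none under that setting or with doublet calls kept. Scaling moved the median of all genes by up to -0.13 in the T cells led by Ccl1 with TMM factors. No paired analysis was possible because there was 1 library per genotype. Genes under 50 UMIs in a class are limited by depth.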

Other observations

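Other members of the interleukin-1 family were read from a list of 15 symbols, of which 11 were in the matrices and 5 had at least 50 UMIs. Il1rl1, the interleukin-33 receptor, was highest in group 2 innate lymphoid cells, with 1671 CPM in the Plaur KO library and 1404 CPM in the WT library. Regulatory T cells followed with 389 CPM in the Plaur KO library and 258 CPM in the WT library, and cDC2 had 28.9 CPM (Plaur KO) and 15.4 CPM (WT). Il1f9, an interleukin-36 cytokine, was found in neutrophils at 206 CPM in the Plaur KO library and 234 CPM in the WT library, and in classical monocytes at 60.4 CPM (Plaur KO) and 93.1 CPM (WT). Il1rl2, the interleukin-36 receptor, was found in alveolar macrophages at 27.2 CPM in the Plaur KO library and 32.4 CPM in the WT library, and in interstitial macrophages at 30.5 CPM (Plaur KO) and 29.0 CPM (WT). Sigirr, a receptor that dampens signalling, was 37.5 CPM in CD8 T cells of the Plaur KO library and 31.7 CPM in those of the WT library. It was not particular to them. Regulatory T cells had 31.2 CPM (Plaur KO) and 44.9 CPM (WT), and gamma-delta T cells 36.0 CPM (Plaur KO) and 28.9 CPM (WT). NK cells had 28.5 CPM (Plaur KO) and 31.4 CPM (WT), and CD4 T cells 21.3 CPM (Plaur KO) and 30.1 CPM (WT).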
